A study of Mus musculus with 2 samples.

Results

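The 8 mouse microRNA genes Mir128-1, Mir128-2, Mir138-1, Mir138-2, Mir7-1, Mir9-1, Mir9-2 and Mir9-3 make 4 microRNAs, miR-128, miR-138, miR-7 and miR-9, each encoded at several places in the genome. They were found by their GENCODE M21 names among the 2202 microRNA genes of the count tables, and all 8 were measured. The libraries were made from C2C12 myocytes. C2C12 is a line of myoblasts from crushed thigh muscle of C3H mice, whose cells fuse into muscle fibres in culture, here after 72 h of differentiation. There was 1 group of 2 libraries, biological replicates 1 and 2, from total RNA with inserts under 30 bases. No other condition was sampled, so the genes could be described and their copies and replicates compared, but no effect of differentiation was measured. Both replicates derive from the same established line, and nothing in the labels says that separate cultures were differentiated, so the spread given here may be technical in part. As the RNA was taken from whole cultures, fewer cells with a microRNA and less of it per cell cannot be told apart.

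All 4 microRNAs are known for their abundance in the nervous system. A microRNA is cut from a hairpin precursor, whose 5p or 3p arm is loaded into the silencing complex, and bases 2 to 8 of that arm, the seed, pair with target messenger RNAs. miR-9 acts in neural progenitors and represses the neural repressor gene Rest and the nuclear receptor gene Nr2e1. miR-128 is enriched in neurons of the forebrain, miR-138 limits the size of dendritic spines in rat neurons, and miR-7 is bound at many sites by the circular RNA Cdr1as. A microRNA with several genomic copies can be made from different host transcripts, and the copies are often expressed in different cells.

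The main mature arm of each microRNA is shown first, because its identity among copies sets what the counts can show. The sequences are those of RefSeq on GRCm38.p6, the assembly that mm10 names, all 8 genes matched that table by symbol with the same hairpin coordinates as in M21, and the seed is in capitals.
mmu-miR-128-3p: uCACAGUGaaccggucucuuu
mmu-miR-138-5p: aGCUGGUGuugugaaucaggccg
mmu-miR-7a-5p: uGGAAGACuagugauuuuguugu
mmu-miR-9-5p: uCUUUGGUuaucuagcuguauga
mmu-miR-9-3p: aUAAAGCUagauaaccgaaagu
The 5 seeds are all different. The miR-128-3p arm was found in 2 annotated hairpins (Mir128-1 and Mir128-2), miR-138-5p in 2 (Mir138-1 and Mir138-2), miR-7a-5p in 2 (Mir7-1 and the gene Mir7-2, which lies outside the 8), and miR-9-5p in 3. Both arms of miR-9 are the same in all 3 of its hairpins.

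The hairpins follow, 5′ to 3′, with the longest stretch shared with another copy of the same microRNA in capitals.
Mir128-1: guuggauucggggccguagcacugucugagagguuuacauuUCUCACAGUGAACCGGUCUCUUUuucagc
Mir128-2: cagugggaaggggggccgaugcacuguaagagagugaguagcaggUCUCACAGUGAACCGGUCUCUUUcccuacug
Mir138-1: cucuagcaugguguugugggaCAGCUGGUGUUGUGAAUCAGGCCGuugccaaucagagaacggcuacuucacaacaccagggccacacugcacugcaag
Mir138-2: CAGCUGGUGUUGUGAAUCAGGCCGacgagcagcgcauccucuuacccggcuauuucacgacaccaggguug
Mir7-1: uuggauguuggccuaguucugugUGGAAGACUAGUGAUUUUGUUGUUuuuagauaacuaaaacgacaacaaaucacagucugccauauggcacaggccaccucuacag
Mir7-2: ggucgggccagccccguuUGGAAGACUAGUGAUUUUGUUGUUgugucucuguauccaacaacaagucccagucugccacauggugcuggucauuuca
Mir9-1: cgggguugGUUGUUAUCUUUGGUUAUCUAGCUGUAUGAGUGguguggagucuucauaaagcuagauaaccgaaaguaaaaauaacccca
Mir9-2: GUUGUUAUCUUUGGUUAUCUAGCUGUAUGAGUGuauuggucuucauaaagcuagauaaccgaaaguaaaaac
Mir9-3: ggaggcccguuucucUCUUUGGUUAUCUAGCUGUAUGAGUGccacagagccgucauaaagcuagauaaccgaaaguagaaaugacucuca
The shared stretch was 23 bases long between the Mir128 copies, 24 between the Mir138 copies and 24 between Mir7-1 and Mir7-2. Mir9-1 and Mir9-2 shared 33 bases, more than the upper size of the inserts, and Mir9-3 shared 26 bases with each of them. The stretches of the Mir138 copies and of Mir9-1 with Mir9-2 begin at the annotated 5′ end of Mir138-2 and Mir9-2. Their lengths are therefore minimums. An exact copy of miR-128-3p that ran past its 3′ end differed between the hairpins from the first further base, U in Mir128-1 and C in Mir128-2. For miR-138-5p this was likewise the first base past the 3′ end, U in Mir138-1 and A in Mir138-2. For miR-9-5p a read extended at its 3′ end alone needed 4 further bases in each of the 3 hairpins. Extended at its 5′ end alone, a miR-9-5p read needed 1 further base in Mir9-3 to differ from the other 2 hairpins. In Mir9-1 such a read stayed identical to Mir9-2 up to the annotated 5′ end of the Mir9-2 hairpin, so no differing base was seen.

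The other arm told the copies apart for miR-128, miR-138 and miR-7, and it is shown for this reason, again with the seed in capitals.
mmu-miR-128-1-5p: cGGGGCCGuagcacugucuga
mmu-miR-128-2-5p: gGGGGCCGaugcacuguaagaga
mmu-miR-138-1-3p: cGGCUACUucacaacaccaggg
mmu-miR-138-2-3p: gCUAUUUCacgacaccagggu
mmu-miR-7a-1-3p: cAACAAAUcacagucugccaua
mmu-miR-7a-2-3p: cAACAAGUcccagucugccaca
None of these arms occurred in another annotated hairpin. miR-128-1-5p and miR-128-2-5p have the same seed and differ at some of their other bases, whereas the 3p arms of the Mir138 copies and of the Mir7 copies have different seeds. The deposited tables hold 1 line for reads that map to several places and count only the remaining reads to genes, without separating arms. The counts below are therefore counts of reads that could be placed on 1 copy, and they are not the total of mature miR-128, miR-138, miR-7 or miR-9. A read placed by its bases past a shared arm need not come from that copy, since whether those bases were copied from the hairpin was not tested.

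**Figure D1:**
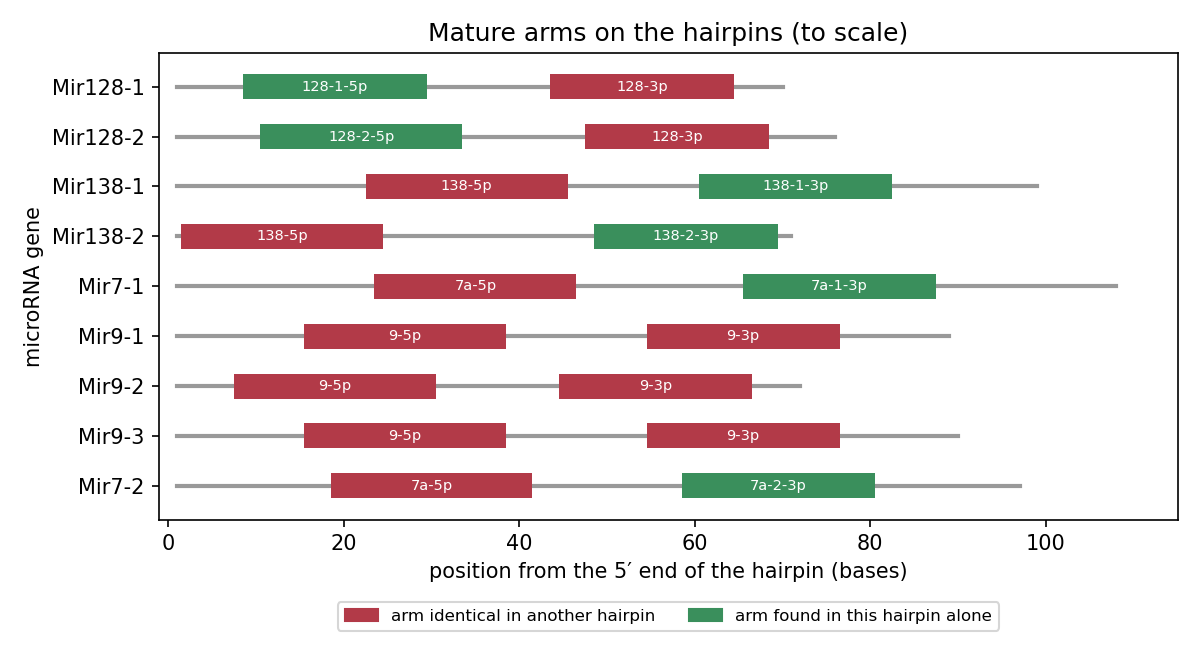
Positions of the annotated mature arms on the hairpins, with the x axis in bases from the 5′ end of each hairpin, to scale; red arms are identical in another annotated hairpin and green arms occur in 1 hairpin alone. Each Mir128, Mir138 and Mir7 hairpin has 1 green arm, and the 3 Mir9 hairpins have none.

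Of the 8 genes, 5 were detected with at least 10 sense-strand counts in each library, namely both Mir128 copies, both Mir138 copies and Mir7-1. None of the 3 Mir9 genes was. Of all 2202 genes, 314 were detected by the same minimum. Together the 8 genes had 1896 counts in replicate 1 and 2332 in replicate 2, which was 0.0250% and 0.0236% of the counts assigned to microRNA genes (0.0243% ± 0.000969, SD, n = 2). Replicate 1 had 7581366 assigned counts and replicate 2 had 9865298. For the label of the cells, Mir206, a microRNA restricted to skeletal muscle, took 34.1% and 41.7% of the assigned counts. Of the 8 measured myocyte markers (of 9 listed), 6 had at least 10 counts in each library. The markers with copies were low, with means of 2.94 and 3.02 counts per 1000000 assigned counts for Mir1a-1 and Mir1a-2. Mir133a-1 and Mir133a-2, which missed the minimum, had 2.01 and 1.03. These 4 genes too are counted only by reads placed on 1 copy. Of 7 neural markers, the 3 Mir124a genes had 0 counts in both libraries, 3 genes had at least 10 counts in each library, and the whole list, as counts per 1000000 assigned counts (CPM), summed to 95.9 in replicate 1 and 104.9 in replicate 2. The Mir124a genes are copies of 1 microRNA, so their counts of 0 carry the limit of multi-copy genes and say little of the level of miR-124. The blood list summed to 104.6 and 182.1 CPM, and the endothelial marker Mir126a had 217 and 42.9 CPM. The part of these lists in the values below was not tested.

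**Figure D2:**
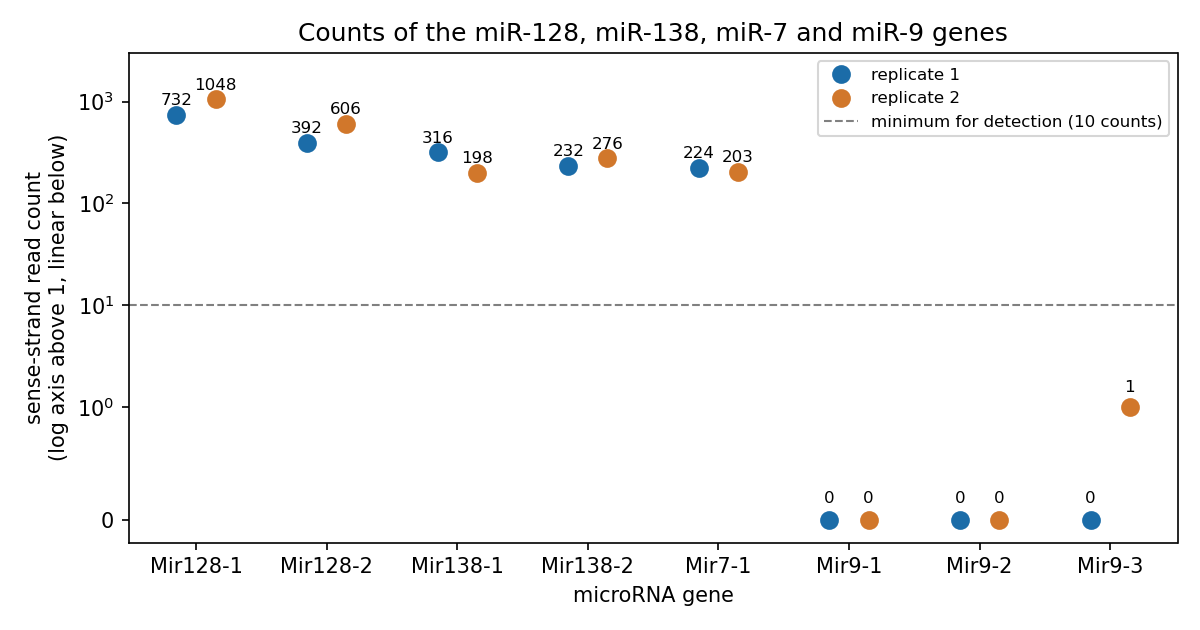
Sense-strand read counts of the 8 genes in replicate 1 (blue) and replicate 2 (orange), on an axis that is logarithmic above 1 and linear below, with the minimum of 10 counts as a dashed line. The 5 detected genes lie between 198 and 1048 counts, and the Mir9 genes hold 1 count in all.

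miR-128 was the most abundant of the 4 among reads placed on 1 copy. Mir128-1 (ENSMUSG00000065520.2; chr1:128202361-128202430, plus strand, mm10) lies in an intron of R3hdm1, a protein-coding gene on the same strand. It had 732 counts in replicate 1 and 1048 in replicate 2, or 96.6 and 106 CPM (101 ± 6.84, SD, n = 2). Its mean CPM placed it at 133 of the 314 detected genes, near the middle of the ranking. Mir128-2 (ENSMUSG00000065441.2; chr9:112118636-112118711, minus strand) lies in an intron of Arpp21, the gene of a cAMP-regulated phosphoprotein that is abundant in striatal neurons. It had 392 and 606 counts, or 51.7 and 61.4 CPM (56.6 ± 6.87), and stood at 153. All host genes named here are annotated on the strand of their microRNA.

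The copy in R3hdm1 had more counts than the copy in Arpp21 in both libraries. The ratio of Mir128-1 to Mir128-2 was 1.87 in replicate 1 and 1.73 in replicate 2 (mean log2 ratio 0.85 ± 0.08, SD, n = 2). Mir128-1 thus held 65.1% of the pair's counts in replicate 1 (exact Clopper-Pearson 95% interval 62.3 to 67.9) and 63.4% in replicate 2 (61.0 to 65.7). The intervals overlap each other and lie above 50%, and like all intervals here they cover counting error only, since PCR copies without molecular identifiers are not independent molecules. The ratio is one of reads that could be told apart, from the 2 different 5p arms and from 3p reads that ran past the shared stretch, in proportions that the tables do not give. The first base past that stretch can place a 3p read, so the ratio need not be that of the output of the 2 loci.

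miR-138 had fewer counts, and its copies changed order between the libraries. Mir138-1 (ENSMUSG00000065414.1; chr9:122682876-122682974, plus strand) overlaps an exon of Gm47135, annotated as a transcribed unprocessed pseudogene. It had 316 counts in replicate 1 and 198 in replicate 2, or 41.7 and 20.1 CPM (30.9 ± 15.3). Mir138-2 (ENSMUSG00000065512.3; chr8:94324311-94324381, plus strand) overlaps an exon of C78859, a long noncoding RNA gene. It had 232 and 276 counts, or 30.6 and 28.0 CPM (29.3 ± 1.86). Mir138-1 was the higher copy in replicate 1 and the lower copy in replicate 2, while Mir138-2 was nearly level.

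The ratio of Mir138-1 to Mir138-2 was 1.36 in replicate 1 and 0.717 in replicate 2 (log2 ratios of 0.45 and -0.48, mean -0.02 ± 0.65). Mir138-1 held 57.7% of the pair's counts in replicate 1 (53.4 to 61.8) and 41.8% in replicate 2 (37.3 to 46.4). These exact intervals lie on opposite sides of 50% and do not overlap, so the libraries differ by more than counting error and no order of the copies can be given for the myocytes.

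Mir7-1 (ENSMUSG00000065434.1; chr13:58392779-58392886, minus strand) lies in an intron of Hnrnpk, which encodes an abundant nuclear RNA-binding protein. It had 224 counts in replicate 1 and 203 in replicate 2, or 29.5 and 20.6 CPM (25.1 ± 6.34). Mir7-2, which makes the same miR-7a-5p arm and overlaps no annotated gene on either strand, had 18 and 25 counts. Mir7-1 therefore held 92.6% of the pair's counts in replicate 1 (exact 95% interval 88.5 to 95.5) and 89.0% in replicate 2 (84.2 to 92.8), a ratio of 12.4 and 8.12. Mir7b, whose 5p arm has the same seed and a slightly different sequence, had 2 and 3 counts. Among reads placed on 1 gene, nearly all miR-7 counts were placed on the copy in Hnrnpk.

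The Mir9 genes were nearly empty. Mir9-1 (ENSMUSG00000106493.1; chr3:88215598-88215686, plus strand), in an intron of the long noncoding RNA gene Gm3764, had 0 counts in both libraries. Mir9-2 (ENSMUSG00000065424.2; chr13:83738814-83738885, plus strand), which overlaps an exon of C130071C03Rik, also a long noncoding RNA gene, also had 0 counts in both. Mir9-3 (ENSMUSG00000093238.1; chr7:79505264-79505353, plus strand), in an intron of its host transcript Mir9-3hg, had 0 counts in replicate 1 and 1 in replicate 2. A count of 0 allows up to 3 counts, or 0.396 CPM in replicate 1 and 0.304 CPM in replicate 2. Gm25641, the microRNA gene annotated on the strand opposite Mir9-1, had 0 counts as well. These limits hold for reads placed on 1 copy. Since both miR-9 arms are identical in all 3 hairpins, exact reads of mature miR-9 map to several places, and the level of miR-9 in these cells cannot be given from the gene counts. The multi-mapped line held 3378438 reads of replicate 1 and 3295854 of replicate 2, which was 1782 and 1413 times the sum of the 8 genes, and the tables do not say which microRNAs they hold.

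The position of the 8 genes was set against the other microRNA genes by whether their arms are shared. Of the 2202 genes, 954 had a hairpin and mature sequence in the RefSeq table. Among 38 genes whose every annotated arm is identical in another hairpin, the 3 Mir9 genes among them, 5 were detected (13.2%), and 29 had no count in either library. Among 54 genes with both a shared and a private arm, 37 were detected (68.5%), including the 5 Mir128, Mir138 and Mir7 genes. Among 862 genes with private arms alone, 220 were detected (25.5%). No count in either library was found for 7 of the 54 genes and 358 of the 862. The median of detected genes was 26.0 CPM where every arm is shared, 29.3 CPM with arms of both kinds and 78.0 CPM with private arms alone. The Mir9 genes thus fall in a class in which most genes have no counts.

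The copy ratios were also set beside those of other multi-copy microRNAs. Among detected genes with a RefSeq mature sequence under the same symbol, there were 20 pairs, 36 genes in all, that hold an identical mature arm. Detected copies without such a sequence are left out. Between the libraries the log2 copy ratio moved by a median of 0.61 over these pairs, with a range of 0.08 to 2.08. The Mir128 pair moved by 0.11, and 19 of the 20 pairs, itself included, moved by as much or more. The Mir138 pair moved by 0.92, a shift reached by 6 pairs, itself included. Of the 20 it was the 1 pair in which the higher copy was not the same in both libraries. Its copies were also the closest of the 20 pairs in mean level, with a mean log2 ratio near 0, against a median of 2.11 in size over the pairs. Mir1a-1 and Mir1a-2, which are not among the 20 pairs, also changed order. They had 23 and 32 counts in replicate 1, and 28 and 18 in replicate 2. The Mir7 pair moved by 0.62.

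**Figure D3:**
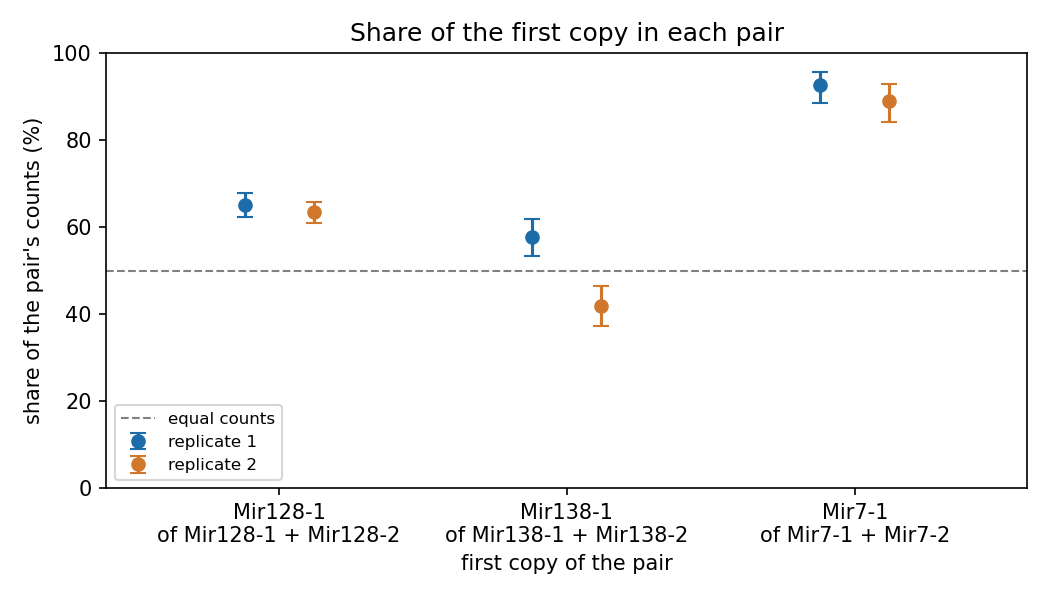
Share of the first copy in the counts of each pair (%), for replicate 1 (blue) and replicate 2 (orange), with exact 95% Clopper-Pearson intervals and equal counts as a dashed line. Mir128-1 and Mir7-1 lie above 50% in both libraries, and Mir138-1 lies at 57.7% in replicate 1 and 41.8% in replicate 2.

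Within the detected genes, the order of the means was Mir128-1, Mir128-2, Mir138-1, Mir138-2 and Mir7-1. A read of this size spans a whole mature microRNA, so the counts were not divided by hairpin length. Of the 4 neighbouring pairs in this order, Mir128-1 over Mir128-2 and Mir128-2 over Mir138-1 held in both libraries with exact intervals of the share above 50%. For Mir128-2 and Mir138-1, Mir128-2 held 55.4% of the counts in replicate 1 (51.6 to 59.1) and 75.4% in replicate 2 (72.2 to 78.3). Mir138-1 and Mir138-2 changed places. Mir138-2 and Mir7-1 could not be told apart in replicate 1, where Mir138-2 held 50.9% (46.2 to 55.6), and in replicate 2 it held 57.6% (53.1 to 62.1). Between 39 and 47 other detected genes lay within 2-fold of each of the 5.

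Of the 5 detected genes, Mir138-1 had the largest ratio between the replicates. It was 2.08-fold higher in replicate 1 than in replicate 2 (exact two-sided binomial test on the counts given the library totals, Benjamini-Hochberg adjusted over 314 genes, adjusted p = 6.48e-16). Mir7-1 was 1.44-fold higher in replicate 1 (adjusted p = 0.000369 by the same exact test), and Mir128-2 was 1.19-fold higher in replicate 2 (adjusted p = 0.0127, exact test). Mir128-1 had a log2 ratio of replicate 1 over replicate 2 of -0.14 (adjusted p = 0.0690, exact test), and Mir138-2 one of 0.13 (adjusted p = 0.399, exact test). The call of Mir128-1 depended on the scaling, with an adjusted p of 0.00123 with TMM factors, 0.00186 with DESeq2 size factors and 0.00211 in the either-strand counts by the same exact test. The test compares 2 libraries and covers counting error only.

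Of the 5 detected genes, 3 passed this test. Mir138-1 and Mir7-1 were higher in replicate 1, and Mir128-2 was lower there. Among all 314 detected genes the share that passed was 66.6% (38.2% with more in replicate 1, 28.3% with more in replicate 2). That share includes genes with far fewer counts than the 5. With a minimum of 100 counts, which all 5 genes reach, 166 of 187 genes passed, and of the 5 the same 3. How the 5 compare with all genes therefore depended on the minimum, and for Mir128-1 also on the scaling. The median log2 ratio was 0.13 for the 5 genes and 0.09 for all detected genes. In size, regardless of direction, the median was 0.25 for the 5 genes and 0.51 for all detected genes. When copies were summed, miR-138 was 1.50-fold higher in replicate 1 (548 and 474 counts in replicates 1 and 2, adjusted p = 1.60e-10, exact binomial test), miR-7a was 1.38-fold higher in replicate 1 (242 and 228 counts, adjusted p = 0.000856, exact test), and miR-128 was 1.13-fold higher in replicate 2 (1124 and 1654 counts, adjusted p = 0.00251, exact test).

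**Figure D4:**
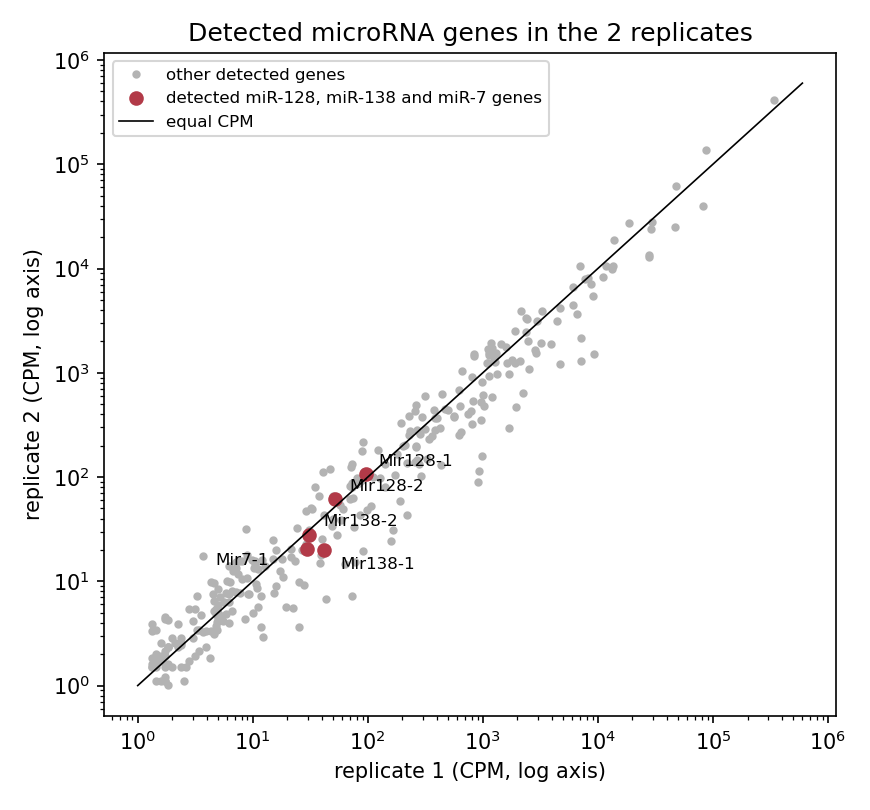
CPM of the 314 detected microRNA genes in replicate 1 (x) and replicate 2 (y), both axes logarithmic, with the 5 detected Mir128, Mir138 and Mir7 genes in red and equal CPM as a line. Mir138-1 lies below the line at 41.7 and 20.1 CPM, and Mir128-1 lies close to it at 96.6 and 106 CPM.

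Other microRNA genes described as enriched or active in neural tissue were taken from a list of 38, of which 37 were measured. With at least 10 counts in each library, 20 were detected, against 314 of all 2202 genes, and 9 had no count in either library. By the exact binomial test 12 of the 20 differed between the replicates, of which 7 were higher in replicate 1 and 5 in replicate 2, against the 66.6% of all detected genes given above. The list holds microRNAs that many tissues express, and these led it: Mir149 with 7867 ± 180 CPM, Mir181c with 1451 ± 366, Mir125b-1 with 1038 ± 143, Mir139 with 458 ± 17.4, Mir125b-2 with 301 ± 18.5 and Mir328 with 274 ± 11.1 (SD, n = 2). The Mir125b copies share an arm, so their counts carry the same limit.

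Taken copy by copy, the 5 detected Mir128, Mir138 and Mir7 genes fell among the next genes of this list, in counts that leave out reads of their shared arms. Mir132, made with Mir212 from a locus that neuronal activity induces, had 112 ± 20.0 CPM and Mir212 19.4 ± 5.21 CPM. Mir330 had 89.1 ± 12.6 CPM. Mir153, in an intron of Ptprn2, the gene of a dense-core vesicle protein of neuroendocrine cells, had 640 counts in replicate 1 and 865 in replicate 2 (86.0 ± 2.31 CPM), which lay between Mir128-1 and Mir128-2. Lower levels were found for Mir326 (17.0 ± 1.12 CPM), Mir598 (14.7 ± 5.15 CPM), Mir219a-1 (12.9 ± 4.42 CPM), Mir135b (12.5 ± 4.91 CPM) and Mir218-1 (6.76 ± 2.48 CPM). In the either-strand counts Mir219a-1 had 0 counts, and so had Mir129-2, which had 18 and 15 sense counts in replicates 1 and 2. Mir219a-1, with 74 and 158 sense counts, overlaps Mir219c, a microRNA gene annotated on the opposite strand. The cause of these either-strand counts of 0 was not tested. Mir7-2, Mir129-2, Mir383, Mir184 and Mir137 had between 10 and 25 counts in each library. Mir124a-1, Mir124a-2 and Mir124a-3, which make the most abundant microRNA of neurons, had 0 counts, and like the Mir9 genes they are copies of 1 microRNA.

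**Figure D5:**
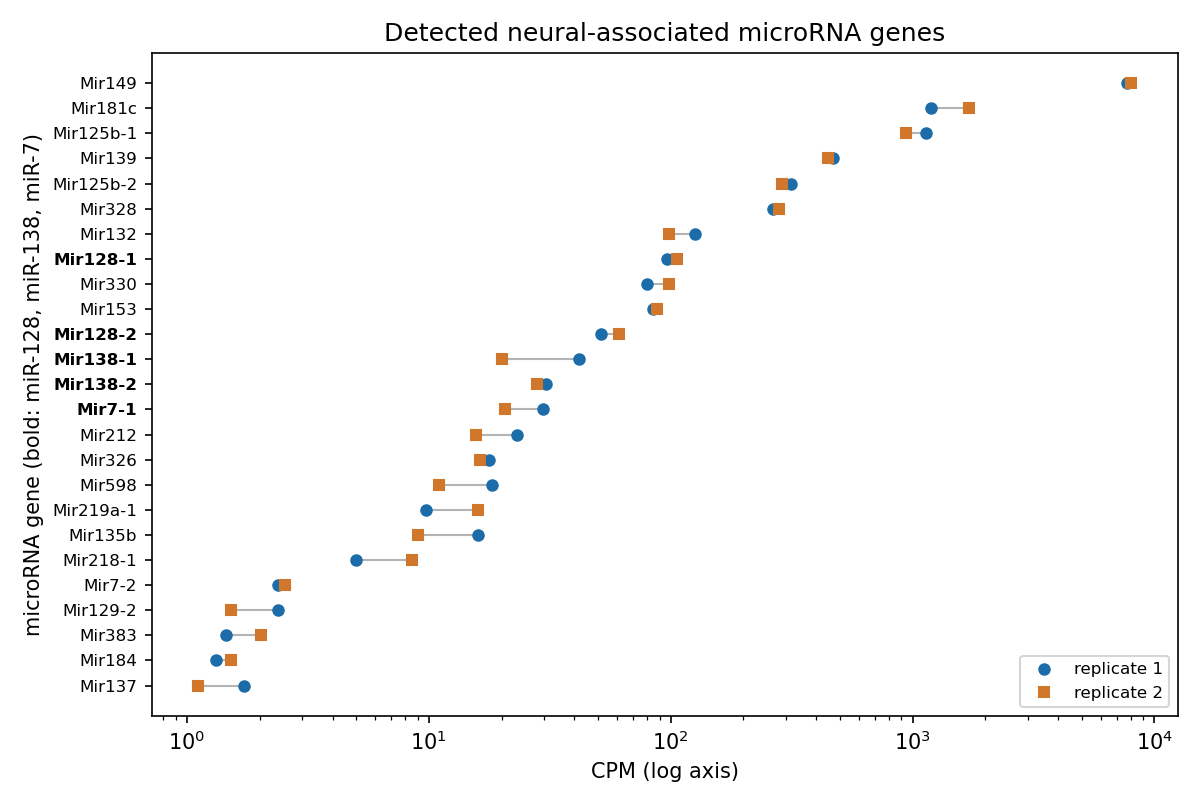
CPM on a log axis of the 5 detected Mir128, Mir138 and Mir7 genes (bold) and the 20 detected genes of the neural-associated list, with replicate 1 as blue circles and replicate 2 as orange squares. The bold genes lie between 20.1 and 106 CPM, below Mir132 and above Mir212 in mean.

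The bases of the miR-128-3p seed also occur in another microRNA family, shifted by 1 base. CACAGUG stands at bases 3 to 9 of miR-27a-3p and miR-27b-3p, and at bases 2 to 8 of no other microRNA of the RefSeq table than miR-128-3p. This comparison was chosen after the values were seen. In replicates 1 and 2, Mir27a stood at 3220 and 1939 CPM and Mir27b at 8643 and 7106 CPM. No ratio to the Mir128 genes is given, since miR-27a-3p and miR-27b-3p each occur in 1 annotated hairpin and miR-128-3p in 2, so that exact reads of miR-128-3p are left out of the Mir128 counts. The seeds of miR-138-5p and miR-9-5p occurred at bases 2 to 8 or 3 to 9 in no mature microRNA of another family, and the miR-7a-5p seed occurred also in miR-7b-5p.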

How the data were processed

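Small RNA reads of 2 libraries were deposited as tables of read counts per microRNA gene. The deposited counts are whole numbers with no sign of normalization. Reads had been trimmed of adapters, per the labels' protocols. The deposited notes name mm10 as the build and M21 as the annotation. The aligner and counter were not given in the sources used here. Each table gives counts for either strand, the sense strand and the opposite strand, and 4 further lines (reads unmapped, mapped to several places, on no gene or ambiguous), which were left out of library sizes. From this layout the counts were read as counts of uniquely mapped reads. Multi-mapped reads were 22.0% of 15349205 reads in replicate 1 and 17.9% of 18450359 in replicate 2, and 49.4% and 53.5% of reads were assigned. The opposite-strand counts of the 8 genes were 0.

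CPM were computed over the sense counts. Genes with at least 10 counts in each library were called detected. Replicates were compared with an exact binomial test and Benjamini-Hochberg adjustment over 314 genes at 0.05 (scipy 1.17.1). The code was tried on simulated Poisson counts. These hold counting error alone, so they cannot show how the test behaves with further spread between libraries. TMM factors came from edgeR 4.0.16 and size factors from DESeq2 1.42.0, in R 4.3.3. Copies were compared by exact Clopper-Pearson intervals. Shared stretches were sought among annotated hairpins alone, since no genome sequence was used. Named were the 8 genes, genes with the same mature arm or seed, detected genes of the neural list and the cell type markers. The miR-27 genes and the copy pairs of other microRNAs were added later. The genes and lists were chosen with earlier results of these data known. A single group allowed no test of a condition. The alternatives were the either-strand counts, all reads as denominator, the TMM and DESeq2 factors, minimums of 1 and 100 counts, summed copies, 1 or 10 counts added to each copy, and each replicate left out.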

Additional observations from a re-analysis of the deposited data

Results flagged for a closer look

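Reads that enter no gene's count are listed here because they exceed 3 counts, the limit for a count of 0. Those mapped to several places were 3378438 (replicate 1) and 3295854 (replicate 2). They are the reads in which exact copies of mature miR-9, miR-128-3p, miR-138-5p and miR-7a-5p would stand, and their identity was not tested. Reads with a single place outside the sense strand of all annotated microRNA genes came to 903243 (replicate 1) and 1027420 (replicate 2).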

How the results depend on the processing

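With minimums of 1 or 100 counts, the either-strand counts or 1 replicate alone, the number of detected genes stayed at 5 of 8 and that of Mir9 genes at 0. For Mir9-1 the either-strand 0 adds little, as a microRNA gene is annotated on its opposite strand. Mir219a-1, which has such a gene too, had 0 either-strand counts despite its sense counts. The share of the 8 genes was 0.0278% in the either-strand counts and 0.0125% over all reads, since the denominators differ, and 0.0243% with TMM or DESeq2 factors. Of the other neural genes 12 had at least 100 counts in each library, against 20 with at least 10. The mean log2 ratio of Mir7-1 over Mir7-2 was 2.83 with 10 counts added to each copy, as that pulls a gene of 18 and 25 counts upward. The mean log2 ratio of Mir128-1 over Mir128-2 ranged from 0.79 to 0.90 when each replicate was left out. That of Mir138-1 over Mir138-2 was -0.48 without replicate 1 and 0.45 without replicate 2, so its direction rests on which library is used. The number of genes that differed between the replicates ranged from 166 to 227 over the alternatives, against 209 of 314 tested. The 166 were of 187 genes tested with a minimum of 100 counts, and the 227 of 555 with a minimum of 1. The share that differed therefore depended strongly on the minimum. Among the 5 detected genes, Mir128-1 gained a call under 3 alternatives (the cause was not tested), and the other 4 kept their side of the threshold under each. The replicate comparison has no value with 1 replicate left out. No paired analysis was possible because the series holds 1 group. Since the main arm of all 8 genes is identical in another hairpin, exact reads of it are in none of these values.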
